A study of Mus musculus with 7 samples.

Results

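The HIF pathway was read here through 10 genes, chosen by name: the transcription factor subunit genes Hif1a and Arnt, the oxygen sensor genes Egln1, Egln2 and Egln3, and the hypoxia-induced genes Vegfa, Bnip3, P4ha1, P4ha2 and Pfkfb4. All 10, each protein coding, were found among the 55367 gene symbols of the series. Of them, 8 had reads in every library, and Egln3 and P4ha2 were listed at 0 in all 7 libraries.

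Hypoxia-inducible factors are pairs of an oxygen-regulated alpha subunit and the stable partner ARNT. In oxygenated cells the prolyl hydroxylases of the EGLN family, which need oxygen, iron and oxoglutarate, mark the alpha subunit for degradation through the VHL ubiquitin ligase. When hydroxylation fails, the alpha subunit persists and switches on genes of glycolysis, blood vessel growth, mitophagy and collagen hydroxylation. In red cell production the pathway is best known for the control of the hormone erythropoietin and of iron uptake. The regulation of the alpha subunit itself is largely at the protein level, which transcript levels do not show.

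The series set zinc restriction against control zinc during erythroid differentiation. All libraries come from one line, G1E-ER4, mouse progenitors without endogenous GATA1 in which an estrogen-responsive GATA1 fusion protein lets estradiol start maturation. Polyadenylated RNA was sequenced from 3 libraries of cells kept for 24 h in 100 nM β-estradiol with 50 µM DTPA, a chelator that binds zinc and also other metals, from 3 libraries of cells kept for 24 h in 100 nM β-estradiol alone (control), and from 1 library of cells before differentiation at 0 h. All cells grew with erythropoietin and Kit ligand. The labels name no hypoxic culture and no oxygen level, and the 0 h library has no replicate. The labels call the replicates biological without naming separate cultures, so p-values measure the spread between these samples, which may be technical.

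The deposited TPM values correspond to an estimated 19.79 to 21.19 M reads per library under DTPA, 17.68 to 18.60 M in the controls and 17.59 M at 0 h. Of 9 erythroid markers, 9 reached 1 TPM in each group. Their sum was 18470 to 19610 TPM under DTPA, 24810 to 27410 TPM in the controls and 7050 TPM at 0 h. It includes Gata1, with means of 1305 TPM under DTPA and 3164 TPM in the controls, and 2969 TPM at 0 h. Since the line is without endogenous GATA1, transcripts of the GATA1 fusion may make up much of that row, which was not tested. The row was called lower under DTPA than in the controls, by 1.28 on the log2(TPM + 1) scale (limma adjusted p = 3.81e-06). Alas2 had a higher mean under DTPA (2538 TPM) than in the controls (1937 TPM). Klf1 (838 and 814 TPM) did not pass the test, and the other markers had lower means under DTPA. These falls were uneven. Slc4a1 had 73.0 ± 2.81 TPM under DTPA, 770.3 ± 3.71 TPM in the controls and 45.63 TPM at 0 h. Its mean under DTPA was 0.0948 times that in the controls, the lowest ratio among the markers. Hba-a1, the largest part of the sum at 24 h, stood at 0.797 times. Summed megakaryocyte markers (6 genes) were 42.4 to 51.5 TPM under DTPA, 9.08 to 12.7 TPM in the controls and 39.5 TPM at 0 h. Summed markers of myeloid, lymphoid and mast cells stayed at or under 8.43 TPM in every library, and those of stromal cells at or under 0.19 TPM. In bulk RNA, fewer cells of a type and less RNA per cell cannot be told apart.

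Against 0 h, Vegfa and Egln1 fell and Pfkfb4 rose, both under DTPA and in the controls, with Vegfa at 0.0108 times its 0 h level in each group and Pfkfb4 at 15 times under DTPA and 16.1 times in the controls. Between DTPA and control, P4ha1 rose to 11.6 ± 0.95 TPM under DTPA, against 6.25 ± 0.652 TPM in the controls (SD, n = 3 each). Arnt fell to 43.4 ± 1.66 TPM under DTPA, against 69.4 ± 4.96 TPM in the controls, and Bnip3 to 24.1 ± 0.816 TPM, against 33.1 ± 1.87 TPM. Smaller falls of Hif1a and Egln2 under DTPA depended on the processing. The detected members lie (GRCm38) at chr12:73901375-73947530 (Hif1a), chr3:95434388-95497240 (Arnt), chr8:124908587-124949324 (Egln1), chr7:27158658-27166802 (Egln2), chr17:46016993-46032369 (Vegfa), chr7:138890836-138909519 (Bnip3), chr10:59323296-59373304 (P4ha1) and chr9:108991778-109032228 (Pfkfb4). Differences between groups are on the log2(TPM + 1) scale, on which low genes change less than in TPM, with limma's moderated test adjusted by the Benjamini-Hochberg method over all genes tested. A gene was called at an adjusted p under 0.05, and against the single 0 h library it also had to differ at least 2-fold.

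**Figure D1:**
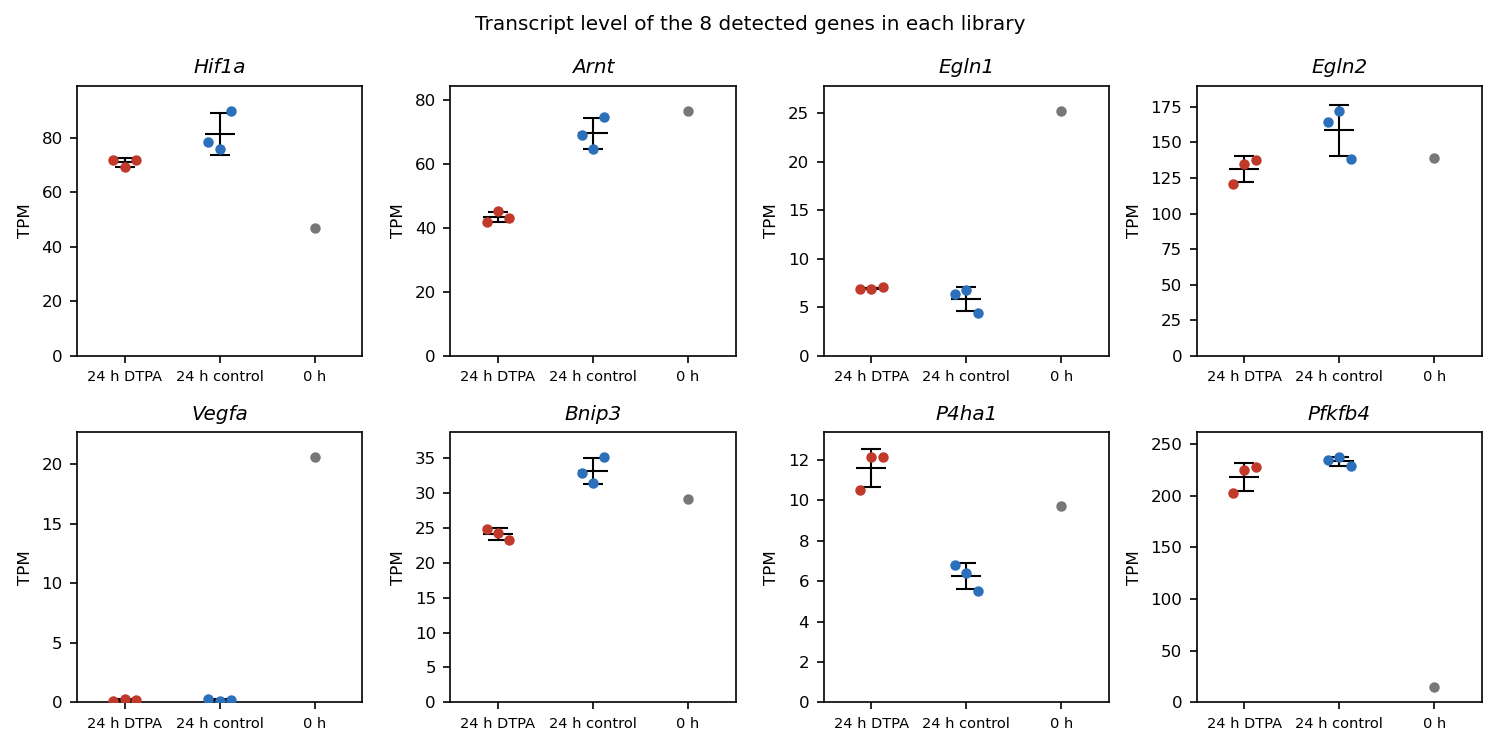
TPM of the 8 detected genes in each library (points), with the mean and SD of the 3 libraries at 24 h in DTPA and in control (bars); the 0 h group is 1 library, and each axis starts at 0. Vegfa stood at no more than 0.31 TPM at 24 h, against 20.61 TPM at 0 h, and Pfkfb4 at 202.89 TPM or more at 24 h, against 14.51 TPM at 0 h.

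For DTPA against control at 24 h, 7 of the 10 members passed the filter on low values, of which 1 rose, 4 fell and 2 did not pass the test. Over all 11147 genes tested in that comparison, 21.7% were called higher, 36.4% lower and 58.1% in either direction. The libraries of both groups did not overlap in all 7 tested members, against 65% of all genes tested. The median log2 difference of the tested members was -0.19 and that of all genes -0.09. For control at 24 h against 0 h, 8 members passed the filter, of which 1 rose and 2 fell, against 15.1% of 11906 genes called higher, 24.3% lower and 39.4% in either direction. For DTPA at 24 h against 0 h, 1 rose and 2 fell among 8, against 15.7% of 12016 genes called higher, 27.6% lower and 43.3% in either direction. These comparisons share the 0 h library, and their spread comes from the groups at 24 h, since a single library is assumed to vary like them. The median log2 difference of all genes was -0.30 for DTPA and -0.22 for control against 0 h on the deposited scale, and -0.07 for each with median-of-ratios scaling. The share of calls that were higher was 36.3% for DTPA and 38.3% for control against 0 h as deposited, and 49% for DTPA and 48.5% for control with quantile normalization. For DTPA against control it was 37.3% as deposited, 47.9% with median-of-ratios scaling and 50.75% with quantile normalization.

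**Figure D2:**
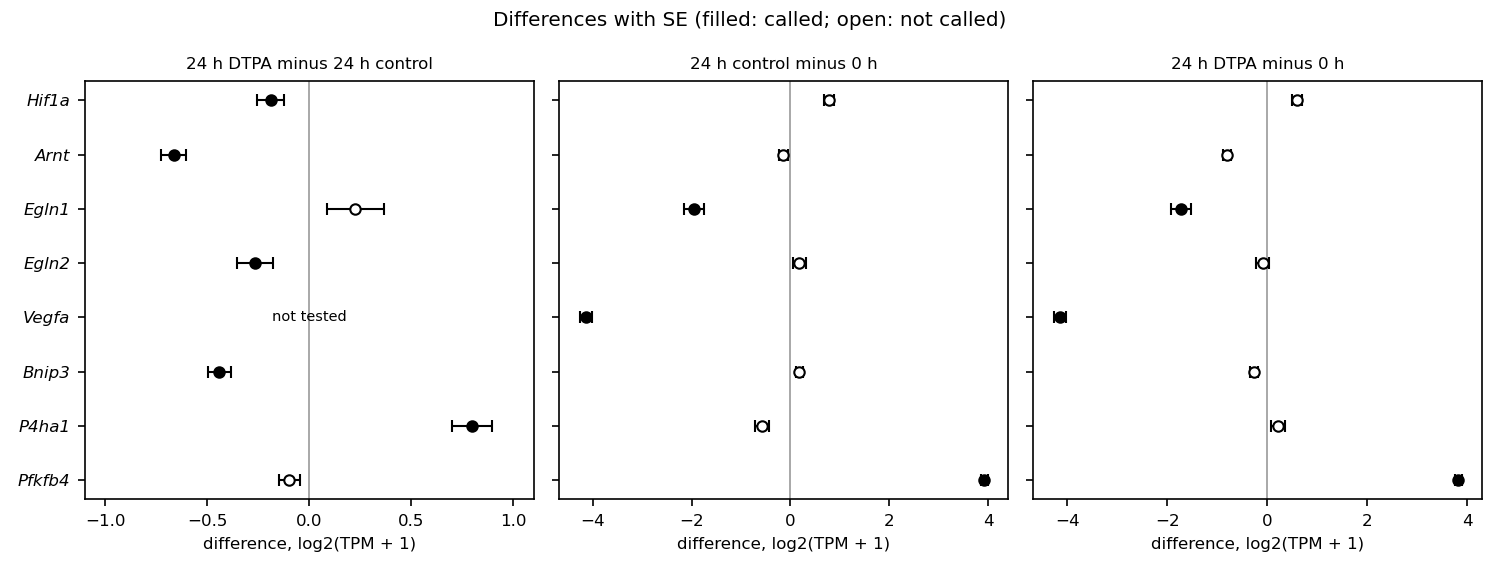
Difference in log2(TPM + 1) with its SE for the 8 detected genes in 24 h DTPA minus 24 h control (left), 24 h control minus 0 h (middle) and 24 h DTPA minus 0 h (right); filled points were called, open points were not, and the left axis has a finer scale. Vegfa at -4.14 and Pfkfb4 at 3.92 lie far from the other genes in the middle panel.

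The oxygen sensors were represented by Egln2 and, at a lower level, Egln1. Egln1 (also called PHD2) is the main hydroxylase of HIF alpha in most cells, and Egln2 and Egln3 encode its paralogs. Egln1 had 6.91, 6.90 and 7.05 TPM under DTPA, 6.36, 6.82 and 4.47 TPM in the controls and 25.28 TPM at 0 h. Every library at 24 h lay far below the 0 h library, and the DTPA libraries lay just above the controls without overlap. Egln1 fell against 0 h under DTPA, with a log2 difference of -1.72 (SE 0.202, limma adjusted p = 0.000404), and in the controls, with -1.95 (SE 0.202, adjusted p = 0.000257). Between DTPA and control its log2 difference was 0.23 (SE 0.138, adjusted p = 0.199) and did not pass, and without control replicate 3 it was 0.07.

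Egln2 (PHD1) was among the higher members in all groups. Its levels were 120.67, 134.83 and 137.60 TPM under DTPA, 164.16, 172.37 and 138.56 TPM in the controls and 139.18 TPM at 0 h. The highest DTPA library and the lowest control library differed by under 1 TPM. It fell under DTPA against control, with a log2 difference of -0.27 (SE 0.0882, limma adjusted p = 0.0327), a call lost with median-of-ratios scaling (-0.17, adjusted p = 0.168), with quantile normalization (-0.10, adjusted p = 0.387), without a filter on low values (0.0813), without the variance trend (0.0625), and without control replicate 1 (adjusted p = 0.089) or 2 (0.102) or DTPA replicate 1 (0.0954) or 2 (0.0524). Against 0 h its log2 difference was -0.09 under DTPA (adjusted p = 0.567) and 0.18 in the controls (adjusted p = 0.27), neither past the test.

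Egln3 (PHD3), the paralog most strongly induced by HIF in many cells, was listed at 0 in every library. A gene of its exon length with 3 reads, the upper limit that a count of 0 allows, would reach 0.157 to 0.193 TPM. As a share of the summed Egln1, Egln2 and Egln3 TPM within a library, Egln1 made up 5.42%, 4.87% and 4.87% under DTPA, 3.73%, 3.81% and 3.13% in the controls and 15.4% at 0 h. The summed level was 127.58 to 144.65 TPM under DTPA, 143.03 to 179.19 TPM in the controls and 164.46 TPM at 0 h.

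Hif1a, which encodes the alpha subunit, had 71.98, 69.13 and 71.77 TPM under DTPA, 78.27, 75.69 and 89.94 TPM in the controls and 46.75 TPM at 0 h. All 6 libraries at 24 h lay above the 0 h library. The log2 difference from 0 h was 0.59 under DTPA (SE 0.097, limma adjusted p = 0.00188) and 0.78 in the controls (SE 0.097, adjusted p = 0.000578), both under the 2-fold minimum, so neither was called. Between DTPA and control it fell, with a log2 difference of -0.19 (SE 0.0671, adjusted p = 0.0423). That call was lost with median-of-ratios scaling (-0.09, adjusted p = 0.21), with quantile normalization (-0.05, adjusted p = 0.481), without a filter on low values (0.0839), without the variance trend (0.0754), and on leaving out control replicate 1 (adjusted p = 0.0557) or 3 (0.0629) or DTPA replicate 1 (0.0687), 2 (0.113) or 3 (0.0809). Hif1a shares 330 bp of exon with Gm15283 on the other strand, which was listed at 0, and 148 bp with Gm49321 on its own strand.

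Arnt encodes the constitutive partner, which other factors of the same protein family also use. It had 41.84, 45.13 and 43.16 TPM under DTPA, 69.08, 64.64 and 74.54 TPM in the controls and 76.56 TPM at 0 h. The DTPA libraries lay well below all others. Arnt fell under DTPA against control, with a log2 difference of -0.66 (SE 0.0614, limma adjusted p = 6.45e-05). The difference was -0.71 to -0.51 over all alternatives tried, each past the test. Its log2 difference from 0 h was -0.81 under DTPA (adjusted p = 0.000251), under the 2-fold minimum, and -0.14 in the controls (adjusted p = 0.179).

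The ratio of Hif1a to Arnt within a library does not depend on scaling. It was 1.72, 1.53 and 1.66 in the DTPA libraries, 1.13, 1.17 and 1.21 in the controls and 0.611 at 0 h. The groups at 24 h did not overlap and both lay above the 0 h library.

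**Figure D3:**
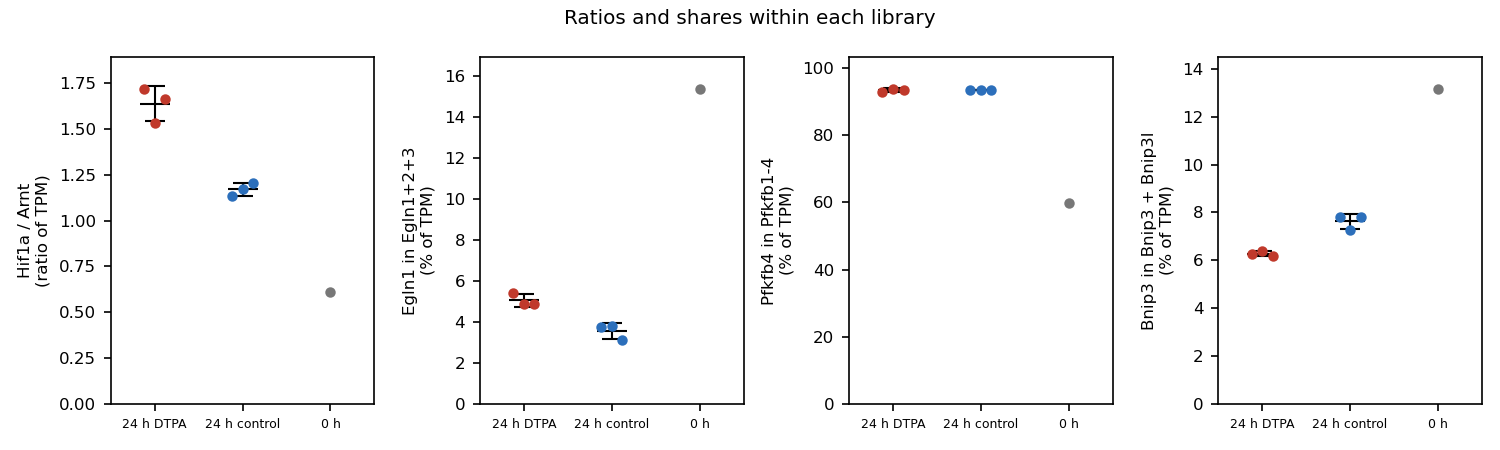
Ratios and shares of TPM within each library (points), with the mean and SD of the 3 libraries at 24 h in DTPA and in control (bars) and the single 0 h library; axes start at 0. The Hif1a to Arnt ratio was 1.53 to 1.72 under DTPA, 1.13 to 1.21 in control and 0.611 at 0 h.

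The promoter sequences of the members that carried the changes are shown next, as the 250 bases before the transcription start in RefSeq (GRCm38.p6), read 5′ to 3′ on the gene's strand. Capitals mark the core of the hypoxia response element, searched as ACGTG and GCGTG on both strands; CACGTG holds ACGTG on both strands and was counted as 1 site. Such a core stood in this window at 38.6% of 32817 annotated starts. It stood at the first listed start of 9 of the 10 members, all but Vegfa, and the second listed start of Vegfa, inside the gene, held 2 sites. Shown are the members that fell or rose with differentiation and the hypoxia-induced members called under DTPA.
Vegfa, chr17:46032378-46032627, minus strand: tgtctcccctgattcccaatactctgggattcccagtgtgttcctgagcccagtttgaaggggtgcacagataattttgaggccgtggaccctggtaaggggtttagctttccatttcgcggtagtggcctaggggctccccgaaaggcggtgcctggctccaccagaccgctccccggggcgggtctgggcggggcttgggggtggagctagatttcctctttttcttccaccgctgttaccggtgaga
Egln1, chr8:124949255-124949504, minus strand: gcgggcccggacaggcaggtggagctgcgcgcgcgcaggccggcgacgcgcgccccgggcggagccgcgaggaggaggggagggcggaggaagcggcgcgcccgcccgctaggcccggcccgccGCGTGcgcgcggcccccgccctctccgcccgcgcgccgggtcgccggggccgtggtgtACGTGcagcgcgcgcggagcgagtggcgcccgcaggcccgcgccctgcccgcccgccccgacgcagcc
Pfkfb4, chr9:108991652-108991901, plus strand: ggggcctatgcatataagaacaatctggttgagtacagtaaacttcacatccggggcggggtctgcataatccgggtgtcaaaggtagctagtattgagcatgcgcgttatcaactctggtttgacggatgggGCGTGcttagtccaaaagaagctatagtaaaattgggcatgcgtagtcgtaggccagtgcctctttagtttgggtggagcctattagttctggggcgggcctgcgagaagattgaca
Bnip3, chr7:138909507-138909756, minus strand: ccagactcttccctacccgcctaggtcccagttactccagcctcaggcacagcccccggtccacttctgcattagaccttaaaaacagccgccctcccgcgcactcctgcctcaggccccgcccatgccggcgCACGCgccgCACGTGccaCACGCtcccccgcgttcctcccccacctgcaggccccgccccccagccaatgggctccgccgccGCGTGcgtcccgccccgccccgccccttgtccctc
P4ha1, chr10:59323046-59323295, plus strand: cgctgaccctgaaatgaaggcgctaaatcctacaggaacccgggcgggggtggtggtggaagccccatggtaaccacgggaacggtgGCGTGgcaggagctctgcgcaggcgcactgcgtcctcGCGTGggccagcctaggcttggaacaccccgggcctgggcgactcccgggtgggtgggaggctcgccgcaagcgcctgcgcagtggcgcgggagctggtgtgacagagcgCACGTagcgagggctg
The window of Egln1 held 2 sites, that of Pfkfb4 1, that of Bnip3 4 and that of P4ha1 3. GATA motifs, searched on both strands as GATAA or GATAG with an A or a T before it, stood at the first starts of Vegfa and Pfkfb4 and at the second start of Egln2, against 26.6% of all windows. These matches describe letters in the window and not binding.

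Vegfa encodes the main growth factor of blood vessels and is a classical HIF target. It had 0.13, 0.31 and 0.23 TPM under DTPA, 0.27, 0.16 and 0.24 TPM in the controls and 20.61 TPM at 0 h. The estimated reads behind these values were 4, 9 and 7 under DTPA, 7, 4 and 6 in the controls and 522 at 0 h. All 6 libraries at 24 h were close to the limit of detection, with means 0.0108 times the 0 h value in each group. Vegfa fell against 0 h under DTPA, with a log2 difference of -4.15 (SE 0.124, limma adjusted p = 1.48e-06), and in the controls, with -4.14 (SE 0.123, adjusted p = 1.98e-06). At this level the size depends on the pseudocount. The difference was -6.04 under DTPA and -6.02 in the controls with a pseudocount of 0.1, and -2.29 in each with 5. Between DTPA and control it was too low to be tested, and its ranges overlapped.

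Pfkfb4 encodes an isoform of the enzyme that makes and removes the form of fructose bisphosphate that activates phosphofructokinase. It is induced by hypoxia in many cells. It was the highest member at 24 h and at 0 h the lowest but P4ha1 of those detected. Its levels were 202.89, 224.52 and 227.42 TPM under DTPA, 234.44, 237.46 and 228.85 TPM in the controls and 14.51 TPM at 0 h. Pfkfb4 rose against 0 h under DTPA by 3.82 on the log2 scale (SE 0.07, limma adjusted p = 3.63e-07) and in the controls by 3.92 (SE 0.07, adjusted p = 4.38e-07). The mean was 15 times the 0 h value under DTPA and 16.1 times in the controls. The call held under every scaling, filter and pseudocount tried, with 3.51 to 4.23 under DTPA and 3.61 to 4.16 in the controls. The difference between DTPA and control was -0.10 (SE 0.0508, adjusted p = 0.134) and did not pass. Within the summed Pfkfb1 to Pfkfb4 TPM, Pfkfb4 made up 92.8% to 93.9% under DTPA, 93.4% to 93.5% in the controls and 59.8% at 0 h.

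Bnip3 encodes a mitochondrial outer membrane protein that promotes mitophagy under hypoxia. It had 24.83, 24.31 and 23.23 TPM under DTPA, 32.90, 31.41 and 35.12 TPM in the controls and 29.06 TPM at 0 h. The DTPA libraries lay below and the controls above the 0 h library. Bnip3 fell under DTPA against control, with a log2 difference of -0.44 (SE 0.0581, limma adjusted p = 0.000421) and passed under every alternative tried, with differences of -0.48 to -0.31. Its log2 difference from 0 h was -0.26 under DTPA (adjusted p = 0.0216), under the 2-fold minimum, and 0.18 in the controls (adjusted p = 0.0723). Its exons share 504 bp with Gm45507 on the other strand, which reached at most 0.66 TPM.

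P4ha1 and P4ha2 encode catalytic subunits of collagen prolyl hydroxylase, an enzyme of the endoplasmic reticulum that, like the EGLN proteins, uses iron and oxoglutarate. P4ha1 had 10.50, 12.14 and 12.15 TPM under DTPA, 6.80, 6.42 and 5.53 TPM in the controls and 9.75 TPM at 0 h. The controls were the low group, and the DTPA libraries lay slightly above the 0 h library. P4ha1 rose under DTPA against control by 0.80 on the log2 scale (SE 0.0973, limma adjusted p = 0.000282), with 0.56 to 0.89 over the alternatives, each past the test. Its log2 difference from 0 h was 0.23 under DTPA (adjusted p = 0.182) and -0.57 in the controls (adjusted p = 0.0104), which was under the 2-fold minimum. The summed megakaryocyte markers were likewise higher under DTPA than in the controls, as given above, and their part in the P4ha1 difference was not tested. P4ha2 was listed at 0 in all 7 libraries, where 3 reads would give 0.0669 to 0.0825 TPM.

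The order of levels, in TPM and therefore per length, was Pfkfb4, Egln2, Hif1a, Arnt, Bnip3, P4ha1, Egln1 and Vegfa under DTPA and likewise in the controls. Between neighbours in this order, the ranges of the 3 libraries overlapped only for P4ha1 and Egln1 in the controls. At 0 h the order was Egln2, Arnt, Hif1a, Bnip3, Egln1, Vegfa, Pfkfb4 and P4ha1, from a single library.

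For the 3 members with the largest calls under DTPA, the genes with the most similar pattern were found by the smallest Euclidean distance of centred log2(TPM + 1) over the 7 libraries, among 11223 other genes. For P4ha1 they were Polm (distance 0.123), Cbfa2t2 (0.22) and Irf2bpl (0.223). For Arnt they included Nckap1 (0.111) and Gabpb2 (0.12). For Bnip3 they were Fam91a1 (0.0787), Mis12 (0.0871) and Pdik1l (0.0905).

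Around these members, 94 further genes of the pathway fell into 7 lists. Only those that passed the filter on low values were tested, so the counts below are out of fewer than 94 genes. Between DTPA and control, genes tested were 14 of HIF machinery, 19 of glucose use, 14 other HIF targets and 6 of collagen hydroxylation. The VEGF list had 1, the PFKFB list 3 and the mitophagy receptors 5. For DTPA against 0 h, 16 other HIF targets were tested, and the other lists had the same numbers. Between DTPA and control, 19 rose and 24 fell in the values as deposited, beside 21.7% of all genes tested called higher and 36.4% lower. The counts were 22 and 19 after median-of-ratios scaling and 23 and 19 after quantile normalization, so which direction held more genes turned with the scaling. Among all genes called in that comparison, 37.3% were higher as deposited, 47.9% after median-of-ratios scaling and 50.75% after quantile normalization. For DTPA against 0 h, 13 rose and 21 fell as deposited, and 18 and 17 after median-of-ratios scaling. Of all genes tested in that comparison, 15.7% were called higher and 27.6% lower as deposited. Among all genes called there, 36.3% were higher as deposited and 47.2% after median-of-ratios scaling. The list of HIF machinery holds further HIF subunits, the VHL ligase, hydroxylases and coactivators. Of its 16 genes 14 were tested for DTPA against control, of which 4 rose, 7 fell and 3 did not pass. The shares over all genes were 21.7% called higher and 36.4% lower. The median of the list was -0.20 beside -0.09 for all genes. Its hydroxylases P4htm and Hif1an moved in opposite ways. P4htm, a transmembrane prolyl hydroxylase that can act on HIF, rose to 7.09 ± 0.913 TPM under DTPA, against 2.27 ± 0.199 TPM in the controls (SD, n = 3 each; limma adjusted p = 5.78e-05). Hif1an, the asparaginyl hydroxylase FIH that blocks coactivator binding, fell to 32.9 ± 1.84 TPM, against 49.4 ± 3.33 TPM in the controls (adjusted p = 0.000211). At 0 h P4htm had 2.39 TPM and Hif1an 30.56 TPM.

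Among HIF subunits, Epas1 (HIF2 alpha) reached at most 0.03 TPM in a library and Arnt2 was listed at 0. Hif3a, whose products can oppose HIF signalling, rose to 7.57, 9.19 and 8.73 TPM under DTPA, against 3.65, 2.58 and 2.86 TPM in the controls and 106.44 TPM at 0 h. Its level under DTPA was thus still far below the 0 h library. Cited2, which competes with HIF alpha for coactivators, rose to 58.5 ± 2.6 TPM under DTPA, against 24.3 ± 4.36 TPM in the controls, and had 85.6 TPM at 0 h. Elob, a subunit of the VHL ligase, was lower under DTPA, at 399.8 ± 25.1 TPM, against 680.3 ± 73.4 TPM in the controls. At 0 h it had 351.37 TPM, so the DTPA level lay nearer to the 0 h library than the controls did. Against 0 h in the controls, 1 of 14 machinery genes rose and 3 fell, beside 15.1% of all genes called higher and 24.3% lower. Those that fell were Hif3a, Cited2 and the ubiquitin ligase gene Siah2, which was named after its values were seen.

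Of 19 tested genes of glucose use that HIF is known to induce, 2 rose and 9 fell under DTPA against 0 h, beside 15.7% of all genes called higher and 27.6% lower. Their median was -0.99 beside -0.30 for all genes. In the controls against 0 h the counts were also 2 and 9, beside 15.1% of all genes called higher and 24.3% lower, with a median of -0.97 beside -0.22. Pdk1, the kinase that closes pyruvate dehydrogenase, had 1.23 ± 0.0929 TPM under DTPA, 3.62 ± 0.386 TPM in the controls and 58.67 TPM at 0 h. Ldha, lactate dehydrogenase A, had 99.04, 91.03 and 94.24 TPM under DTPA, 102.88, 101.78 and 101.76 TPM in the controls and 1314.73 TPM at 0 h, and Pgk1 had 67.18 to 68.38 TPM under DTPA, 71.44 to 77.22 TPM in the controls and 456.13 TPM at 0 h. Ldha and Pgk1 were singled out after their values were seen. Against this direction, Hk1, the hexokinase of red cells, rose with differentiation, with 408.8 ± 23.7 TPM under DTPA, 724.2 ± 19.2 TPM in the controls and 103.8 TPM at 0 h.

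Between DTPA and control, 6 of these 19 genes rose, 8 fell and 5 did not pass, beside 21.7% of all genes called higher and 36.4% lower. Their median was -0.15 beside -0.09 for all genes. Pdk1 fell, with a log2 difference of -1.05 (limma adjusted p = 0.000277). Tpi1 fell, with -0.997 (adjusted p = 1.1e-06), and Hk1 fell, with -0.82 (adjusted p = 7.72e-06). Pgam1 rose, with 0.77 (adjusted p = 2.19e-05). Tpi1 and Pgam1 encode enzymes of glycolysis.

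Of 27 other HIF targets, 14 were tested between DTPA and control, and 3 rose, 5 fell and 6 did not pass, with a median of -0.11. These counts lie near the shares of all genes, 21.7% called higher and 36.4% lower. The cytokine gene Mif, the mitochondrial Higd1a and the heme oxygenase gene Hmox1 fell, with log2 differences of -0.77, -0.70 and -0.69, and Mxi1, an antagonist of MYC, rose by 0.50. Against 0 h, 7 of 16 rose and 6 fell under DTPA, beside 15.7% of all genes called higher and 27.6% lower, and 7 rose and 5 fell in the controls, beside 15.1% higher and 24.3% lower. Hmox1 had 66.1 ± 0.287 TPM under DTPA, 107.2 ± 3.04 TPM in the controls and 10.53 TPM at 0 h, and Mif had 67.5 ± 2.11 TPM under DTPA, 116.1 ± 15.5 TPM in the controls and 957.57 TPM at 0 h. Among the targets listed at 0 in all libraries were Adm, Ndrg1, Car9, Epo and Bhlhe40; genes named in these lists only for a level at or near 0 were chosen after their values were seen.

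Of 12 genes of collagen hydroxylation, 6 were tested, and 2 rose, 1 fell and 3 did not pass between DTPA and control. Over all genes tested in that comparison, 21.7% were called higher and 36.4% lower. Plod2 and Plod3, which encode lysyl hydroxylases, rose by 0.88 and 0.84 on the log2 scale (limma adjusted p = 0.00176 for Plod2 and 3.8e-05 for Plod3). P4hb, the partner subunit of the P4HA proteins, fell by 0.59 (adjusted p = 5.64e-06) to 360.3 ± 6.83 TPM under DTPA, against 541.3 ± 4.75 TPM in the controls. At 0 h P4hb had 399.28 TPM. P4ha3 reached at most 0.11 TPM. Plod3 shares 529 bp of exon with Znhit1 on the other strand, which reached 100.53 TPM.

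In the VEGF list only Vegfb, a vascular growth factor that hypoxia hardly regulates, was high enough to be tested. It rose to 189.3 ± 12.5 TPM under DTPA, against 109.1 ± 2.94 TPM in the controls (limma adjusted p = 1.54e-05), and had 108.06 TPM at 0 h. The receptor genes Flt1, Kdr and Flt4 did not exceed 0.05 TPM.

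Among relatives of Pfkfb4, Pfkfb1 rose under DTPA with a log2 difference of 0.27 (limma adjusted p = 0.0385) and Pfkfb2 fell with -0.26 (adjusted p = 0.0127), and Pfkfb3 was listed at 0 in all libraries. The Pfkfb1 call was lost without a filter on low values (adjusted p = 0.0937) and on leaving out any library but DTPA replicate 2, and that of Pfkfb2 with median-of-ratios scaling (adjusted p = 0.0535) and quantile normalization (0.0716). Pfkfb1 shares 123 bp of exon with Apex2 on the other strand, which reached 12.12 TPM. Pfkfb2 shares 154 bp with Yod1 on the other strand, which reached 51.22 TPM. It also shares 1262 bp with Gm29427 on its own strand, listed at 0. The part of these overlaps in the values was not tested. Tigar encodes a phosphatase acting on the fructose bisphosphate that the PFKFB enzymes make. It rose by 0.43 (limma adjusted p = 0.0324), a call lost without control replicate 2 or 3 or any DTPA library.

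Of the 5 other mitophagy receptors, 1 rose, 2 fell and 2 did not pass between DTPA and control. These counts lie near the shares of all genes, with 21.7% called higher and 36.4% lower. Bnip3l, the receptor that removes mitochondria from maturing red cells, was the relative of Bnip3 with the higher level, at 360.1 ± 10.1 TPM under DTPA, 401.4 ± 12.8 TPM in the controls and 191.53 TPM at 0 h. It rose with differentiation in the controls by 1.06 on the log2 scale (limma adjusted p = 9.81e-06), while its log2 difference of -0.16 under DTPA against control (adjusted p = 0.012) was lost with median-of-ratios scaling (adjusted p = 0.274) and quantile normalization (0.437). Bcl2l13 rose by 0.28 under DTPA and Fkbp8 fell, with -0.31, and both share exon bases with genes on the other strand, Bid and Kxd1. The share of Bnip3 in the sum of Bnip3 and Bnip3l was 6.17% to 6.40% under DTPA, 7.25% to 7.82% in the controls and 13.2% at 0 h.

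**Figure D4:**
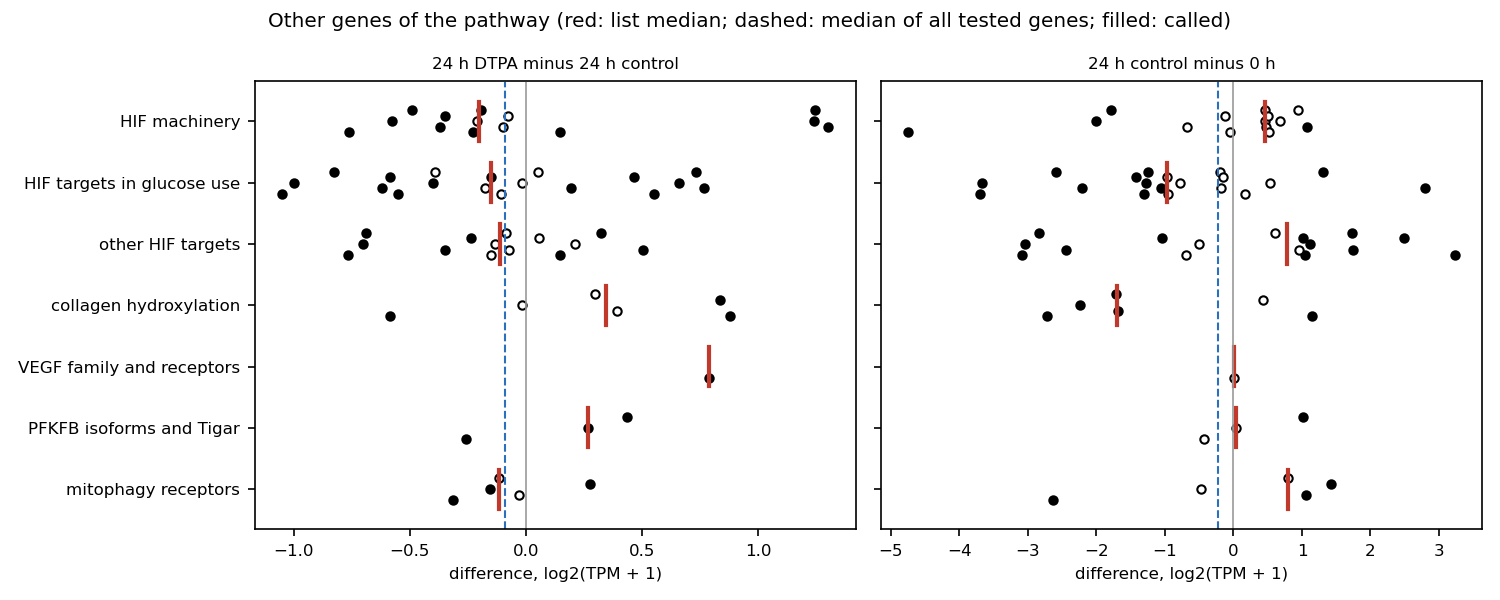
Difference in log2(TPM + 1) of each tested gene of the 7 further lists in 24 h DTPA minus 24 h control (left) and 24 h control minus 0 h (right); filled points were called, red bars are list medians and the dashed line is the median of all tested genes, and the panels have different scales. In the right panel the genes of glucose use have a median of -0.97 beside -0.22 for all genes.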

How the data were processed

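RNA from 7 libraries of G1E-ER4 cells was sequenced. The authors deposited TPM, an abundance scaled by gene length and library total, 1 value per gene symbol and library. Libraries were made with a stranded mRNA kit, per the labels' protocols. The submitters' processing notes name Trimmomatic 0.33, FastQC, HISAT2 2.1.0, featureCounts, edgeR and the build mm10; the annotation, strand setting and gene lengths are not given in the sources used here. Each file had 55487 rows, and 234 rows of 114 repeated symbols were summed. Because TPM is relative to the total, abundant genes that rise lower all others.

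TPM keeps no depth by itself. Reads were estimated from the step of low values with exon lengths of GENCODE M21 (GRCm38), which left 99% to 99.4% of low values within 0.1 of a whole read. Pairs of libraries of a group differed by more than counting noise (mean chi-square per gene 2.99 to 9.18).

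The test was that of limma (version 3.58.1, R 4.3.3), two-sided, with a variance trend, run on log2(TPM + 1) and adjusted over all genes tested. DTPA and control were compared in 6 libraries, keeping genes that reached 1 TPM in 3 or more. Comparisons with 0 h used a fit of all 7, keeping genes whose mean reached 1 TPM in either group. Fits were also run on simulated data in which all 7 libraries varied alike. That simulation cannot check whether the single 0 h library varies like the others. Alternatives changed the pseudocount, filter, scaling, variance trend, minimum fold, replicate block and libraries used. The members, the 7 lists of 94 genes, and the tests were chosen with earlier results of these data known. Named genes are all members, up to 4 called genes of each list with the largest change under DTPA, and relatives of members that reach 1 TPM. Of the genes most similar to Arnt, 1 is not reported here. Promoters are from RefSeq (GRCm38.p6), with all 10 members matched.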

Additional observations from a re-analysis of the deposited data

How the results depend on the processing

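Among the results on single genes, 1044 of 1125 alternative values kept direction and side of the threshold, 41 no longer passed, 28 newly passed and 12 changed direction. The number of members lower under DTPA than in control was 4; it was 2 without a filter on low values, 2 with median-of-ratios scaling, 2 with quantile normalization and 2 without the variance trend, and 2 to 3 when a library was left out, each time through the loss of Hif1a, Egln2 or both. Without a minimum fold, the members higher than at 0 h were 2 under DTPA and 2 in control, and those lower under DTPA 4. All genes higher and lower than at 0 h were then 3598 and 5594 under DTPA and 3675 and 5188 in control, and pathway list genes 25 higher and 32 lower under DTPA and 26 higher in control.

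Directions changed for 12 log2 differences, none of them called. With quantile normalization Pfkfb4 was 0.0711 in DTPA against control, Bnip3, Egln2 and Pgam1 were 0.0696, 0.121 and 0.0037 in DTPA against 0 h, and P4htm was 0.21 in control against 0 h. With median-of-ratios scaling Egln2, P4hb and Pgam1 were 0.171, 0.11 and 0.0700 in DTPA against 0 h, and Arnt and P4htm were 0.0167 and 0.0575 in control against 0 h. With a library left out, Tigar ranged from -0.00916 to 0.0158 in DTPA against 0 h and Vegfb from -0.00467 to 0.0338 in control against 0 h. The cause was not tested.

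Replicate numbers are shared by control and DTPA libraries, but same-numbered libraries did not deviate together (correlations across genes of -0.0103, 0.0242 and -0.0096). With the replicate block 4 members were lower and 1 higher, and all genes called were 2274 higher and 3888 lower, against 2415 and 4059 without it. Pfkfb1 (adjusted p = 0.0718) and Tigar (0.065) then no longer passed. No paired analysis was possible for comparisons with 0 h because those groups share only replicate number 1. Vegfa at 24 h rests on 4 to 9 estimated reads a library.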
